A study of Heliocidaris erythrogramma with 7 samples.

Results

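The genes *ccnr2*, *clvhh1*, *guan/cyc*, *igf1* and *c8orf48l* of the sea urchin *Heliocidaris erythrogramma* (*He*) are markers that the study lists for early cells: *ccnr2* and *c8orf48l* for Early Ectoderm, and *ccnr2*, *clvhh1*, *guan/cyc* and *igf1* for Undifferentiated cells. They were found by name in the deposited gene lists, and these 5 of 20615 gene names cover 6 of 38707 features. A single feature holds nearly every count of *guan/cyc*, because its second feature had 0 counts up to 20 hpf and 1 count each at 24 and 30 hpf. *ccnr2* is a cyclin by name. *clvhh1* is annotated as the cleavage-stage form of the linker histone H1, *guan/cyc* as a receptor guanylyl cyclase, *igf1* as an insulin-like growth factor and *c8orf48l* as similar to a human open reading frame of unknown function.

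A sea urchin egg carries a stock of RNA made by the mother, which drives the first cell divisions until the embryo transcribes its own genome. During this maternal-to-zygotic transition much of the stored RNA is degraded, while zygotic genes of the first territories switch on. Cyclins activate the kinases of the cell cycle, linker histones bind the DNA between nucleosomes and are exchanged for later forms as sea urchin development proceeds, receptor guanylyl cyclases make cyclic GMP, and insulin-like growth factors are secreted ligands of a receptor tyrosine kinase.

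Single-cell RNA-seq libraries were made with the 10x 3′ kit from dissociated, methanol-fixed whole *He* embryos and larvae, at 6, 9, 12, 16, 20, 24 and 30 hours post-fertilization (hpf). No treatment, mutation or strain separated the groups, which differed only by age, and the labels call all of them larvae. There was 1 library per time point and no replicate, so no test between time points was possible. The 95% intervals, exact for levels and shares and approximate for ratios, times and spread, cover sampling within a library alone. Those of levels, ratios and times treat UMIs as independent and do not cover an uneven spread over cells. Levels are given as counts of unique molecular identifiers (UMIs) per 1000000 UMIs of the library (CPM), which for a 3′ kit are not corrected for transcript length, and therefore levels were compared over time and not between genes.

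The kept cells numbered 486 at 16 hpf and 2065 to 5346 in the other libraries, with 936734 UMIs in the first case and 4797317 to 10769034 in the others. Median depth ranged from 1273 to 2581 UMIs per cell. Between 6 and 31 cells of each library carried a barcode also found in another library. Doublets were kept.

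The 5 genes together held 1.16% of all UMIs in the first library, 0.202% and 0.0571% in the next ones and 0.00507% in the last. All of them were at least 48.3-fold lower at 30 than at 6 hpf, yet they took different routes: *ccnr2* was nearly gone after 3 hours, *guan/cyc* had lost little by then, and *c8orf48l* changed little after 12 hpf. Of 5843 gene names with at least 100 UMIs at 6 hpf, 242 (4.14%) were at least 4-fold lower at 9 hpf on the log2(CPM + 1) scale, and 2 of the 5 genes were among them (*ccnr2* and *c8orf48l*, with *igf1* just short of it). At 12 hpf 19.3% of the names and all 5 genes were at least 4-fold lower than at 6 hpf. At 30 hpf 20.3% of the names and again all 5 genes were, whereas 4.96% of the names and none of the 5 genes were at least 4-fold higher. Ranked by the fall from 6 to 30 hpf among those 5843 names, *ccnr2* came 1, *clvhh1* 3, *guan/cyc* 6, *igf1* 8 and *c8orf48l* 47, and the median name had a log2 ratio of -0.78. Fewer cells with a transcript and less of it per cell cannot be told apart in such library sums, so the cells themselves are described further on.

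**Figure D1:**
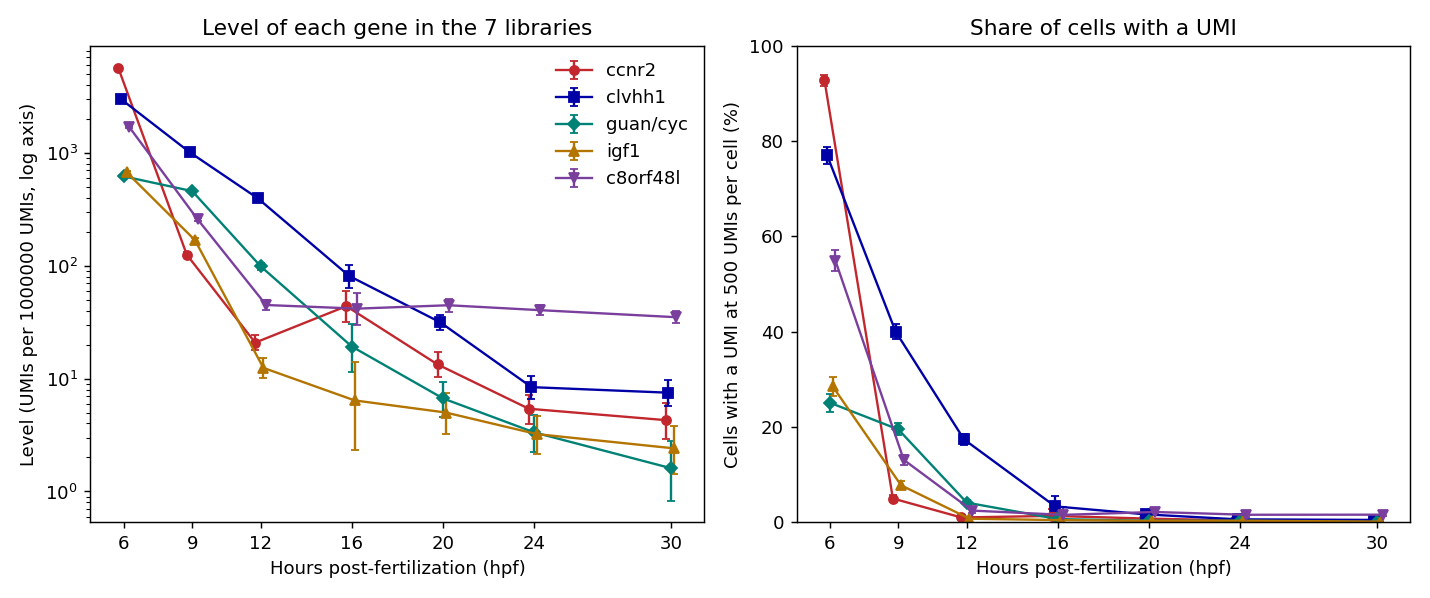
Levels of the 5 genes in the 7 libraries (left, UMIs per 1000000 on a log axis) and the share of cells with at least 1 UMI after every cell was thinned to 500 UMIs (right, %), against hours post-fertilization, with 95% counting intervals and small horizontal offsets. *ccnr2* starts at 5620.3 CPM and drops to 125 CPM by 9 hpf, and *c8orf48l* runs nearly level from 12 hpf on (44.8 to 34.9 CPM) while the other 4 genes go on falling.

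*ccnr2*, the cyclin, was counted 32040 times at 6 hpf and 1348 times at 9 hpf. In the 7 libraries in order of age its level was 5620.3 (5559 to 5682), 125, 20.8, 43.8, 13.3, 5.40 and 4.28 CPM. The 6 hpf library thus stood far above every later one. From 6 to 9 hpf the level fell 44.9-fold (42.5 to 47.4), the largest fall of all 5843 names in that interval. Interpolated between libraries, *ccnr2* reached 50% of its 6 hpf level at 6.55 hpf and 1% at 10.4 hpf. If it fell evenly over these 3 hours, the level was cut by 50% every 0.548 h. Over 24 hours the fall was 1312-fold (928 to 1855).

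The level of *ccnr2* at 16 hpf was above that at 12 hpf, with a log2 ratio of 1.04 (0.56 to 1.52). The 16 hpf value rests on 41 UMIs, and 14 of them lay in 2 cells. Without those cells it was 28.9 CPM (19.0 to 42.0), an interval that overlaps the one at 12 hpf (17.8 to 24.2).

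*clvhh1*, the linker histone of cleavage, was cleared more evenly. In the 7 libraries in order of age its level was 2980.3 (2936 to 3025), 1014, 394, 81.1, 31.5, 8.39 and 7.50 CPM. Each library up to 24 hpf lay below the one before it, with falls of 2.94-fold (2.87 to 3.01), 2.57-fold (2.47 to 2.67) and 4.86-fold (3.87 to 6.10) over the first 3 intervals. The change from 24 to 30 hpf, 1.12-fold (0.790 to 1.59), was within counting error. *clvhh1* reached 50% of its 6 hpf level at 7.93 hpf and 10% at 12.7 hpf.

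*guan/cyc*, the receptor guanylyl cyclase, was the slowest of the 5 to fall at first. In the 7 libraries in order of age its level was 618 (598 to 639), 457, 98.7, 19.2, 6.67, 3.33 and 1.61 CPM. Most of the decline lay after 9 hpf: the fall was 1.35-fold (1.29 to 1.41) from 6 to 9 hpf, 4.63-fold (4.30 to 4.99) from 9 to 12 hpf and 5.14-fold (3.22 to 8.20) from 12 to 16 hpf. In the first interval it ranked 2600 of 5843 names, near the middle of all names. *guan/cyc* reached 50% of its 6 hpf level at 9.77 hpf.

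*igf1*, the growth factor ligand, fell fastest between 9 and 12 hpf. In the 7 libraries in order of age its level was 672 (651 to 694), 168, 12.4, 6.41, 5.003, 3.22 and 2.41 CPM. The fall was 4.00-fold (3.78 to 4.23) from 6 to 9 hpf and 13.5-fold (11.1 to 16.5) from 9 to 12 hpf, where it ranked 21 of 5843. After 12 hpf no single interval exceeded counting error for *igf1*, which had only 6 UMIs at 16 hpf and 18 at 30 hpf, but from 12 to 30 hpf together it was 5.16-fold lower (3.13 to 8.52).

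*c8orf48l* had the earliest floor. In the 7 libraries in order of age its level was 1687 (1654 to 1722), 257, 44.8, 41.6, 44.6, 40.4 and 34.9 CPM. It fell 6.58-fold (6.31 to 6.86) and then 5.72-fold (5.13 to 6.39) over the first intervals, and none of the 4 later steps exceeded counting error. From 12 to 30 hpf the level was 1.28-fold lower (1.09 to 1.504), while over the same time *clvhh1* was 52.6-fold (40.4 to 68.5) and *guan/cyc* 61.5-fold (34.8 to 109) lower. *c8orf48l* stayed at 2.07% of its 6 hpf level at 30 hpf, and the other genes at 0.0762% to 0.359%.

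**Figure D2:**
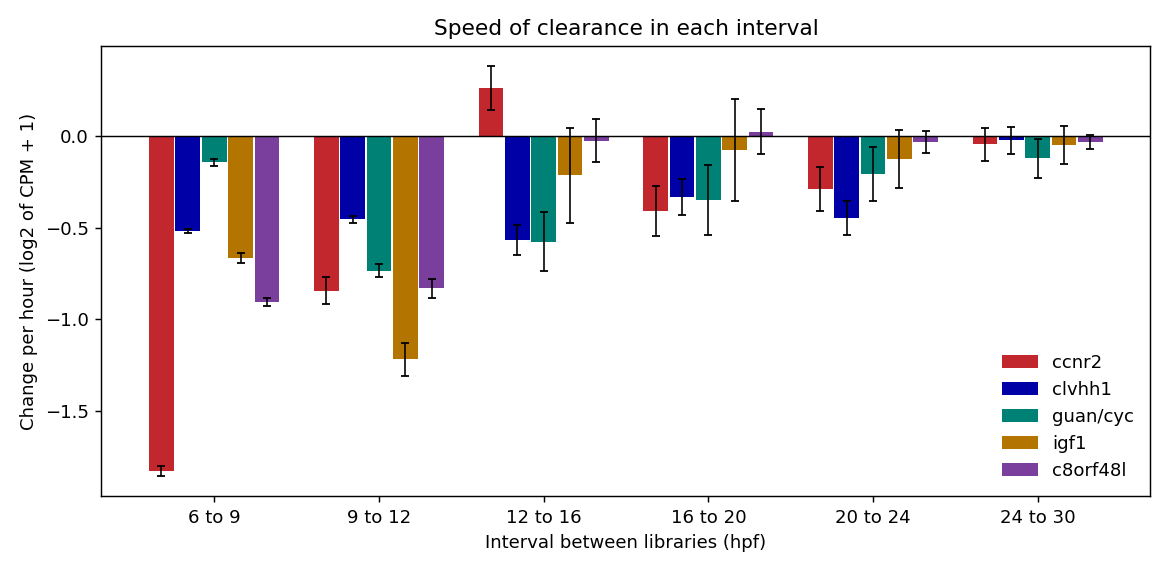
Change of each gene per hour in each interval between neighbouring libraries (vertical axis, log2 of CPM + 1 per hour, where -1 means a fall by 50% in 1 hour), with 95% counting intervals. The bar of *ccnr2* between 6 and 9 hpf is the longest of all, *igf1* has its longest bar between 9 and 12 hpf, and *c8orf48l* has bars near 0 from 12 hpf on.

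The order in which the genes reached 50% of their 6 hpf level was *ccnr2* (6.55 hpf), *c8orf48l* (7.11), *igf1* (7.51), *clvhh1* (7.93) and *guan/cyc* (9.77), and the counting intervals of neighbours in that order did not overlap. These times are interpolated in straight lines on the log2 scale between libraries 3 to 6 hours apart. At 10% of the starting level the order was the same, with *ccnr2* at 7.82, *c8orf48l* at 9.73, *igf1* at 10.1, *clvhh1* at 12.7 and *guan/cyc* at 13.2 hpf, although the intervals of the last pair overlapped (12.6 to 12.8 and 12.8 to 13.6). At 1% *ccnr2* came first at 10.4 hpf, *clvhh1* followed at 20.3 and *guan/cyc* at 21.5 hpf, *igf1* had an interval of 10.0 to 25.6 hpf that covers both, and *c8orf48l* never reached it.

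The share of cells with a UMI traced the same decline from cell to cell. At 6 hpf it was 98.6% of 2065 cells for *ccnr2*, 96.8% for *clvhh1*, 92.5% for *c8orf48l*, 76.5% for *igf1* and 71.1% for *guan/cyc*. With each cell thinned to 500 UMIs the shares were 92.8%, 77.0%, 54.9%, 28.5% and 25.1% in the same order. All 5 genes were thus found across the whole 6 hpf library, and 95.8% of its cells held at least 3 of them.

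By 9 hpf the shares of 4034 cells were 20.5% for *ccnr2* and 86.9% for *clvhh1*. Those of *guan/cyc*, *c8orf48l* and *igf1* were 60.3%, 46.4% and 30.8%. Thinned to 500 UMIs, the shares were 4.98% for *ccnr2* (4.33 to 5.70), 40.03% for *clvhh1*, 19.5% for *guan/cyc*, 13.1% for *c8orf48l* and 7.76% for *igf1*. Within 3 hours *ccnr2* had gone from nearly every cell to a minority, while most cells still carried *clvhh1* and *guan/cyc*. At 12 hpf 45.4% of the cells still had *clvhh1*, against 14.1% with *guan/cyc*, 7.18% with *c8orf48l*, 2.93% with *ccnr2* and 1.79% with *igf1*.

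At 24 hpf 1.16% of the cells (0.832 to 1.58) had *ccnr2* and 0.668% (0.424 to 1.00) *igf1*. No cell type is known to lack these transcripts, so cells with UMIs of at least 2 pigment cell markers, a differentiated type, served for comparison. Among 222 such cells at 24 hpf, 0.450% had *ccnr2* (0.0114 to 2.48) and 0 had *igf1*, which at a limit of 3 counts allows up to 1.35% of cells with a UMI. Their median depth was 2195 UMIs against 2353 in the other cells. The intervals overlap. Of 15 marker groups at 24 hpf, 1 had a *ccnr2* interval apart from that of its other cells. It was the Neural group, at 31.8 CPM (8.67 to 81.4) against 5.02 (3.63 to 6.76), which rests on 4 UMIs in 47 cells. The residual UMIs of *ccnr2* and *igf1* at 24 and 30 hpf were not read as expression in any cell type.

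How evenly the cells held each transcript was measured by the squared coefficient of variation in excess of counting error, with each cell's depth taken into account. A value of 0 is an even spread. At 6 hpf it was 0.0282 for *ccnr2* (0.0221 to 0.0343), 0.0292 for *clvhh1* and 0.0383 for *igf1*, close to the medians of 0.0340, 0.0312 and 0.0355 of names within 2-fold of the same level. Those 3 genes were therefore spread as evenly as most others. *guan/cyc* was less even, at 0.0898 (0.0506 to 0.129) against a median of 0.0364, and 64 of 555 names of its level had more. *c8orf48l* was less even too, at 0.0688 (0.0515 to 0.0861) against 0.0317, with 19 of 144 names above it.

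At 9 hpf the picture had changed for *ccnr2*. Its excess squared variation was 7.68 (2.77 to 12.6) against a median of 0.165 for names of its level, and only 3 of 2094 such names had more. It was 3.70 with cells thinned to 1000 UMIs and 2.21 in the middle 50% of cells by depth. The next most uneven gene was *igf1*, at 1.13 (0.659 to 1.59) against a median of 0.142, with 80 of 1704 names above it, and 0.558 and 0.519 in those alternatives. *guan/cyc* at 0.174, *clvhh1* at 0.106 and *c8orf48l* at 0.150 stayed much closer to their medians of 0.0921, 0.0668 and 0.118.

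Much of the unevenness of *ccnr2* lay in a small number of cells with many UMIs. Spread by depth alone, its 1348 UMIs would have reached 27.6% of the cells and not 20.5%. The 1% of cells with the most UMIs held 25.3% of them, compared with 2.95% at 6 hpf. The single highest cell had 32 UMIs, and 39 cells had at least 4.

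The tail was examined as the 27 cells at 9 hpf with at least 5 *ccnr2* UMIs, a set chosen after the values had been seen. It has no sharp edge, since 12 cells had 4 UMIs and 7 had 5. These *ccnr2*-rich cells held 21.3% of the *ccnr2* UMIs of the library at 2204 CPM, against 99.7 CPM in the other 4007 cells, values that follow from how they were chosen. None of them shared a barcode with a 6 hpf cell. Their median depth was 4060 UMIs against 2471 in the other cells, and they were therefore also compared with the 989 other cells among the deepest 25%, whose median was 3966.

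The other 4 genes were also higher in the *ccnr2*-rich cells. *igf1* stood at 975 CPM (813 to 1160) against 158 (151 to 166) in the other cells, 6.16-fold higher (5.14 to 7.38). This was above even its level over all 6 hpf cells, 672 CPM. *clvhh1* was at 2150.3 CPM (1906 to 2417) against 999.6, 2.15-fold higher (1.91 to 2.42), and 27 of 27 cells had it.

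*c8orf48l* was 1.999-fold higher (1.57 to 2.55), at 507 CPM against 254. The smallest difference was that of *guan/cyc*, at 768 CPM against 454, 1.69-fold higher (1.39 to 2.06). Against the other cells among the deepest 25% the ratios were 5.97 for *igf1*, 2.22 for *clvhh1*, 2.37 for *c8orf48l* and 1.37 for *guan/cyc* (1.12 to 1.67). With 51 cells of at least 3 *ccnr2* UMIs and 1000 CPM in their place, a looser set also chosen after the values were seen, the ratios were 5.85, 2.05, 1.83 and 1.64. The part of depth and of doublets in these ratios was not tested beyond these comparisons.

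**Figure D3:**
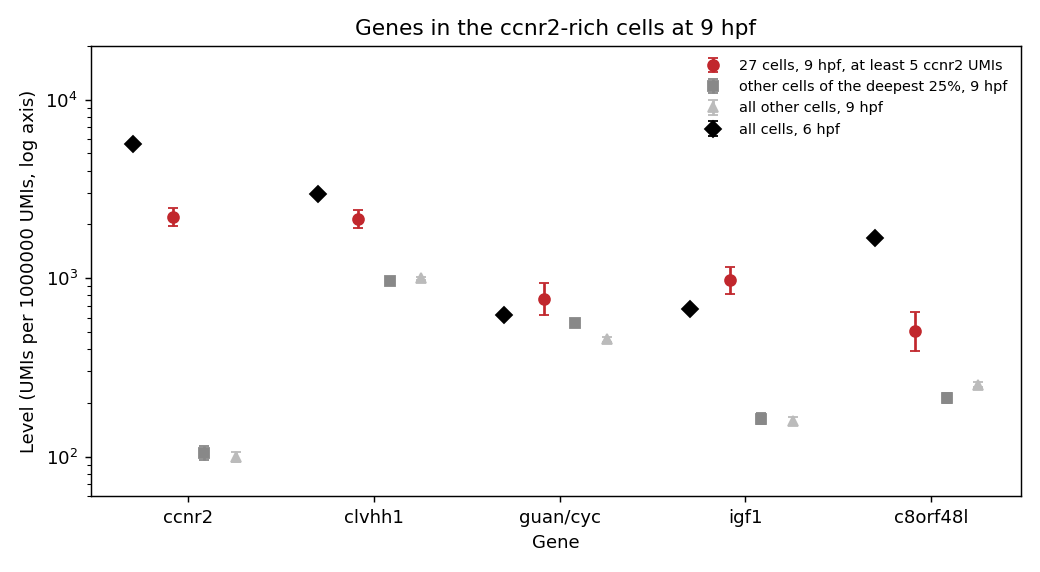
Levels of the 5 genes (UMIs per 1000000, log axis) in all 6 hpf cells (black), in the 27 *ccnr2*-rich cells of 9 hpf (red) and in the other 9 hpf cells, both those of the deepest 25% of cells (dark grey) and all of them (light grey), with 95% counting intervals. The red points lie above both grey points for every gene, and for *igf1* and *guan/cyc* also above the black point, with overlapping intervals for *guan/cyc*. The *ccnr2* values follow from the choice of the cells.

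The difference between the *ccnr2*-rich and the other cells extended beyond the 5 genes. Another 240 names were at least 4-fold lower at 9 than at 6 hpf. Their pooled level was 28184 CPM in the *ccnr2*-rich cells, against 8318 CPM in the other cells and 51440.2 CPM at 6 hpf. A second list held 805 names at least 4-fold higher at 9 than at 6 hpf, with at least 100 UMIs at 9 hpf. Their pooled level was 103604 CPM in the *ccnr2*-rich cells against 232425 CPM in the other cells. Both lists were drawn from these same libraries, and a few abundant names may weigh most in such sums. As a pool, the names that fell by 9 hpf were thus more abundant in these 27 cells, and those gained by 9 hpf less abundant. The proportions among the genes were not those of 6 hpf: for each *igf1* UMI there were 2.26 *ccnr2* UMIs in the *ccnr2*-rich cells, 0.630 in the others and 8.36 at 6 hpf.

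Cells were also grouped by UMIs of at least 2 markers of a cell type, with groups that may overlap. Of the 27 *ccnr2*-rich cells, 6 (22.2%, 8.62 to 42.3) carried Animal Pole Domain markers, against 49.0% of the other cells and 57.1% of those in the deepest 25% of cells. Early Endomesoderm markers were found in 29.6% of them (13.8 to 50.2), against 24.4% of the other cells and 29.0% of those in the deepest 25% of cells. Over the whole 9 hpf library *ccnr2* was lower in the 1968 Animal Pole Domain cells, at 91.0 CPM (83.2 to 99.2), than in the rest, at 162 CPM (151 to 173). A smaller gap was present at 6 hpf, with 5059 CPM (4888 to 5234) in 200 Animal Pole Domain cells against 5693 (5627 to 5759). The Animal Pole Domain group was the deeper one at both times, with medians of 2643 against 2338 UMIs at 9 hpf. The level intervals at 9 hpf take no account of how unevenly *ccnr2* was spread over cells. The *ccnr2*-rich cells, which held 21.3% of its UMIs, are part of the 9 hpf gap, and it was not computed without them.

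At 12 hpf *guan/cyc* was higher in some groups with ectodermal markers and lower in cells with Early Mesoderm, Early Endomesoderm or pigment cell markers. It was at 119 CPM (105 to 135) in cells with Animal Pole Domain markers and 124 CPM (106 to 144) in cells with Ciliary Band markers, both ectodermal, against 91.1 and 93.5 CPM in the respective other cells. Both groups were deeper than the other cells, with medians of 1789.5 against 1613.5 and 1926 against 1612 UMIs. Cells with Larval Ectoderm markers had 114 CPM (105 to 125) against 80.8 (72.1 to 90.4), at median depths of 1831.5 against 1494 UMIs. The part of depth was not tested. Rudiment Ectoderm (Verified) cells were at 103 against 98.2 CPM and Rudiment Ectoderm (Putative) cells at 102 against 98.7 CPM, with overlapping intervals. Cells with mesodermal markers had less, with 68.0 CPM (58.2 to 78.9) in the Early Mesoderm group against 113 (104 to 122) outside it. The Early Endomesoderm group, which shares markers with the Early Mesoderm group, was at 76.5 CPM (65.3 to 89.1) against 107 (98.7 to 115). The lowest value was that of 445 cells with pigment cell markers, at 45.9 CPM (32.5 to 63.0).

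*clvhh1* was also lower in the Early Mesoderm group, at 349 CPM (326 to 372) against 415 (399 to 433). It had no clear ectodermal excess, with 421 CPM (395 to 449) against 384 (369 to 400) in the Animal Pole Domain group and 396 against 394 CPM in the Ciliary Band group, and its lowest value was in the ectodermal group with Rudiment Ectoderm (Putative) markers, at 262 CPM (194 to 347) against 397 (384 to 412). *ccnr2* was at 12.6 CPM (8.60 to 17.7) in the Early Mesoderm group against 24.6 (20.6 to 29.0). *igf1* was at 6.29 CPM (3.59 to 10.2) against 15.2 (12.2 to 18.8). The Early Endomesoderm group was low for these genes as well, at 345 against 412 CPM of *clvhh1*, 11.6 against 24.1 CPM of *ccnr2* and 4.63 against 15.3 CPM of *igf1*. The Animal Pole Domain group was low for *ccnr2* and *igf1* too, at 17.2 CPM (12.1 to 23.6) and 9.49 CPM (5.87 to 14.5). Its intervals overlap those of the Early Mesoderm group. At 12 hpf *ccnr2* and *igf1* were higher in the shallowest 25% of cells, 2.93-fold (2.11 to 4.08) and 4.58-fold (3.07 to 6.82), and 21.8% of the Early Mesoderm cells were among these against 26.4% of the others. Among the deeper cells alone the intervals of *ccnr2* overlapped, 11.4 CPM (7.44 to 16.7) against 19.3 (15.6 to 23.6), as did those of *igf1*, 5.26 CPM (2.72 to 9.18) against 10.2 (7.52 to 13.4). Those of *guan/cyc* and *clvhh1* stayed apart there, at 69.2 against 109 CPM and at 339 against 403 CPM. *c8orf48l* had no group at 12 hpf whose interval lay apart from that of the other cells.

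The late plateau of *c8orf48l* was not even across the larva. At 24 hpf it was at 75.3 CPM (60.9 to 92.2) in cells with Gut and Left Coelomic Pouch markers against 34.5 (30.4 to 39.0) in the others. Cells with Right Coelomic Pouch markers had 74.1 CPM (50.7 to 105) at 24 hpf and 68.2 CPM (41.1 to 107) at 30 hpf, against 38.6 and 33.7 in the others. Cells with Gut and Left Coelomic Pouch markers also had more at 20 hpf, with 74.7 CPM (54.5 to 99.9) against 40.3 (34.5 to 46.8). The excess was not present in every library, since at 30 hpf the Gut and Left Coelomic Pouch group was at 34.1 CPM (22.5 to 49.7) against 35.0, and at 20 hpf the Right Coelomic Pouch group was at 22.0 CPM (4.53 to 64.2) against 45.3. The highest group at 20 hpf was that with Rudiment Ectoderm (Putative) markers, at 84.2 CPM with a wide interval (36.3 to 166). At 24 hpf the gut group was deeper, with medians of 3536 against 2254.5 UMIs, and over the whole library *c8orf48l* was at 42.1 CPM in the deeper cells against 28.2 CPM in the shallowest 25%.

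The last UMIs of the other 4 genes were concentrated in shallow cells, which at 24 hpf held 46.8% of those of *ccnr2* and 65.5% of those of *guan/cyc*. In the shallowest 25% of cells at 24 hpf *ccnr2* was at 20.7 CPM against 3.28 CPM in the deeper cells, a ratio of 6.32 (3.56 to 11.2). The ratio was 7.38 (4.66 to 11.7) for *clvhh1*, 13.6 (6.34 to 29.3) for *guan/cyc*, 9.57 (4.53 to 20.2) for *igf1* and 0.671 (0.461 to 0.975) for *c8orf48l*. Median depths were 1344 and 2659 UMIs. Per cell, too, the shallow cells held more, with 2.56 *ccnr2* UMIs per 100 shallow cells against 0.968 per 100 deeper ones.

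In the libraries of 16, 20, 24 and 30 hpf the ratios of the 4 genes ranged from 3.21 to 13.6, with all intervals above 1, and those of *c8orf48l* from 0.671 to 1.84. At 6 hpf all 5 ratios lay between 0.901 and 1.11. At 9 hpf only *guan/cyc* departed far from 1, with 306 CPM in the shallowest 25% of cells against 480.0 CPM in the deeper cells, a ratio of 0.637 (0.577 to 0.704).

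**Figure D4:**
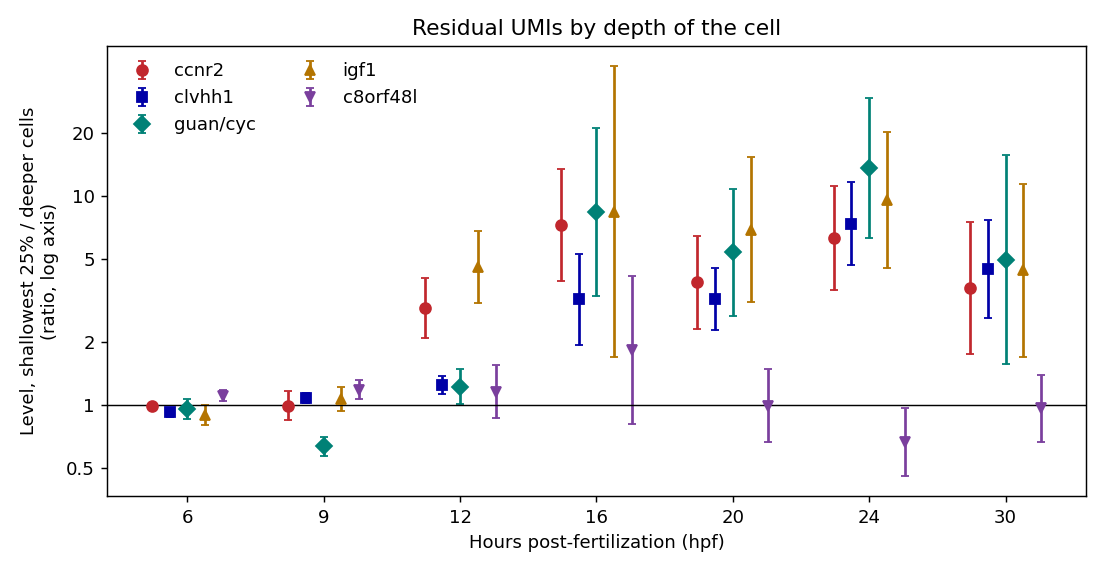
Ratio of the level in the shallowest 25% of cells to that in the deeper cells (log axis, 1 marked by a line) for each gene and library, with 95% counting intervals. Ratios at 6 hpf lie near 1, those of *ccnr2*, *clvhh1*, *guan/cyc* and *igf1* lie above 3 from 16 hpf on, and those of *c8orf48l* range from 0.671 at 24 hpf to 1.84 at 16 hpf.

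At 20 and 24 hpf the same cells tended to hold several of these last transcripts. At 24 hpf 10 of 40 cells with *ccnr2* also had *igf1*, 25% (12.7 to 41.2), against 0.382% (0.204 to 0.653) of the cells without *ccnr2*. At 20 hpf the shares were 11.9% (4.91 to 22.9) and 0.497% (0.278 to 0.818). *clvhh1* was found in 20.0% (9.05 to 35.6) of the cells with *ccnr2* at 24 hpf and in 1.35% (0.992 to 1.80) of those without. For *c8orf48l* the shares at 24 hpf, 17.5% (7.34 to 32.8) and 9.12% (8.17 to 10.1), had overlapping intervals. The cells with *ccnr2* at 24 hpf were not deeper, with medians of 2081 against 2343 UMIs. At 30 hpf the counts were too small to show it for each gene: of 30 cells with *ccnr2*, 3 had *igf1* (10.0%, 2.11 to 26.5, against 0.263%), 2 had *clvhh1* (6.67%, 0.818 to 22.1, against 0.847%, 0.618 to 1.13) and 0 had *guan/cyc*, which at a limit of 3 counts allows up to 10% of cells with a UMI.

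Cells with UMIs of at least 2 of *ccnr2*, *clvhh1*, *guan/cyc* and *igf1*, again a set chosen after the values were seen, made up 97.8% of the cells at 6 hpf, then 68.0% and 9.82% in the next libraries, and 0.668% (23 cells) by 24 hpf. Of these 23 cells 15 were in the shallowest 25% of cells. In those 15 cells, 240 other names that fell at least 4-fold from 6 to 9 hpf had a pooled level of 30717 CPM (27798 to 33859), against 13460 CPM (13239 to 13684) in the other cells among the shallowest 25%. The 60 cell type markers had a pooled level of 5612 CPM (4407 to 7046) in them against 22782 CPM (22494 to 23072). In the 8 deeper cells with such UMIs the early names were at 13522 CPM (12131 to 15029), an interval that covers the 13889 CPM of the other deeper cells. The markers were at 15959 CPM (14444 to 17590) in them against 19735. At 20 hpf the 14 shallow cells had 29254 CPM of the early names against 12406, and 5251 CPM of the markers against 18804. There the 9 deeper cells had more of the early names too, 16414 CPM (14507 to 18501) against 13273. Their markers were not lower, at 20088 CPM (17973 to 22384) against 18493. At 30 hpf, with 6 shallow cells, the early names were at 20608 CPM (16341 to 25648) against 15757, and the markers at 6440.0 CPM against 19648. The 5 deeper cells there had 17118 CPM (14343 to 20274) of the early names against 16935, within counting error. Their markers were at 13541 CPM (11086 to 16378) against 16421. In each of these libraries the shallow cells that kept several of the 4 transcripts thus also held more of the other early names and less of the markers than the other cells among the shallowest 25%, and at 24 hpf their median depth was 810 against 1353 UMIs. At these times the early names are not an index of early RNA alone. In cells outside the set their pooled level rose from 6482 CPM at 12 hpf to 13164, 13837 and 16787 CPM at 20, 24 and 30 hpf. None of the cells with such UMIs at 20, 24 or 30 hpf shared a barcode with a 6 hpf cell. The part of depth in these levels was not tested beyond the split at 25%.

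The 3 names whose course was most like that of each gene were taken by the root mean square difference of the log2 change from 6 hpf over the 6 later libraries. *guan/cyc* and *clvhh1* were among the 3 nearest of each other, at 0.72, and shared both remaining neighbours, *hypp-2359* and *her-27795.t1*. *igf1* was nearest to *neka* at 0.76, *her-20979.t1* at 0.88 and *z295* at 0.93. *ccnr2* had no close neighbour: *her-20979.t1* at 1.80, *hypp-2609* at 2.25 and *igf1* at 2.35 were the nearest. *c8orf48l* was closest to *unk-51* at 0.24, *tnfrsf-cl2* at 0.26 and *kiaa1095l* at 0.37, names that started at 63.5 to 135 CPM and ended near 1 CPM, where the added 1 CPM sets a floor.

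Relatives of the 5 genes were counted at 30 against 6 hpf, among names with at least 100 UMIs over the 7 libraries. Over all 11292 such names the median log2 ratio was 0.02, 12% were at least 4-fold lower and 14.3% at least 4-fold higher. Both other cleavage-stage histones fell, with log2 ratios of -7.20 for *clvhh2b* and -6.45 for *clvhh2a*, so the cleavage-stage linker and core histones went down together. Of 20 other histone names, 4 were at least 4-fold lower and 11 at least 4-fold higher. The early form *ehh1-29* first rose from 16652 to 112152 CPM between 6 and 9 hpf and ended at a log2 ratio of -6.76, while the late form *lhh1b* had a log2 ratio of 7.00.

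Of 9 names on the guanylyl cyclase list none was 4-fold lower and 3 were 4-fold higher, against 12% and 14.3% of all names, counts too small to set the list apart. The list was drawn by name and includes natriuretic peptide receptors, whose cyclase activity was not checked. The lowest was *gucy1b2-4*, with a log2 ratio of -1.87, and *npr3*, a natriuretic peptide receptor by name, had 4.36. Of 7 names of insulin and IGF signalling none was 4-fold lower and 1 was 4-fold higher (*igfbpl7*, an IGF binding protein by name, at 4.58), against the same 12% and 14.3% of all names. *igf-2* had -1.63 and the receptor *igf2r* had 1.54. No counted relative fell as far as *guan/cyc* or *igf1*, but their starting levels did not allow it. At 6 hpf the guanylyl cyclase list was at 0.877 to 11.9 CPM and the insulin and IGF list at 0.175 to 53.0 CPM. With 1 CPM added, such levels limit the fall that can be seen, and the lowest names could not be called 4-fold lower. The depth of the fall was therefore not compared with that of relatives.

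Among cyclins, the list of names starting with *ccn* held only *ccnb1ip1*, a cyclin B1 interacting protein and not itself a cyclin, at -5.05, and *ccny* at 0.69. A list of names starting with *cyc* was added after the values had been seen. Of its 13 names 4 were at least 4-fold lower, *cycb* (-4.28), *cycb3* (-3.50), *cyca* (-3.39) and *cyce* (-2.75), and none was 4-fold higher, against 12% and 14.3% of all names. *cyca*, an A-type cyclin by name, was 1.28-fold lower at 9 than at 6 hpf, against 44.9-fold for *ccnr2*. The remaining Early Ectoderm markers of the study parted: *yp303* had a log2 ratio of -6.66, and *el1l4* had -0.33.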

How the data were processed

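The data are single-cell RNA-seq libraries of whole *He* embryos and larvae, 1 per time point. For each library the authors deposited a matrix of raw UMI counts of features per cell. The submitters' processing notes name Cell Ranger 3.1.0 and Seurat 4.0. The genome build is not given in the sources used here. Gene names were taken from the files without the prefix Sp-, and all features of a name were added up. The 5 genes and all lists were chosen with earlier results of these data known.

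The analysis used Python 3.11.15 with numpy 2.4.6, scipy 1.17.1, pandas 2.3.3 and matplotlib 3.10.9. The filter of the study was applied to cells (over 200 genes, under 4000 genes, under 10000 UMIs), and no doublet caller was run. CPM are UMIs per 1000000 UMIs of all kept cells. Folds are plain ratios of CPM. Log2 ratios used log2(CPM + 1), and a name was called at 4-fold or more on that scale. Intervals are exact Poisson (levels) and Clopper-Pearson (shares) 95% intervals, and those of ratios are on the log scale. A share of 0 is given with the limit that 3 counts set. Excess squared variation was computed against a Poisson expectation scaled by each cell's depth. Names of a similar level were those at 0.5 to 2 times the CPM. A marker group needed UMIs of at least 2 markers in a cell and 20 cells, with the markers of the study, of which 2 had no feature. The computation of log2 ratios, times to 50% and spread was tested on simulated data. With 1 library per time point no test was possible.

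Genes named are the 5 genes, the 3 names most like each, and in each list the 2 largest falls and 2 largest rises, of which the extremes are printed. Alternatives were other scalings (median-of-ratios size factors, mean UMIs per cell), pseudocounts of 0.5 and 5 CPM, filters of none and over 500 genes per cell, the 16 hpf library left out, the main feature alone, thinning to 1000 UMIs or none, the middle cells by depth, an 8-fold limit and a minimum of 20 UMIs.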

Additional observations from a re-analysis of the deposited data

How the results depend on the processing

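No paired analysis was possible because each time point has 1 library. Of 152 alternative values 104 stayed within the counting error of the main value (for the count of names, within 1.5 times), 48 moved by more, and 0 changed direction. With median-of-ratios size factors, which shift levels by at most 0.17 on the log2 scale relative to CPM, the times to 50% were 6.54 hpf for *ccnr2*, 7.06 for *c8orf48l*, 7.43 for *igf1*, 7.80 for *clvhh1* and 9.68 for *guan/cyc*. With mean UMIs per cell they were 7.87 for *clvhh1* and 9.55 for *guan/cyc*. The order of the genes was the same under both. The log2 ratio of 30 to 6 hpf with mean UMIs per cell, which adds the lower depth at 30 hpf, was -10.79 for *ccnr2*, -9.28 for *clvhh1*, -8.41 for *guan/cyc*, -8.24 for *igf1* and -6.50 for *c8orf48l*. With a pseudocount of 5 CPM it was -9.24 for *ccnr2*, -7.90 for *clvhh1*, -6.56 for *guan/cyc* and -6.51 for *igf1*. At an 8-fold limit 456 names were lower at 30 than at 6 hpf, against 1186 at 4-fold. Leaving out the *ccnr2*-rich cells brought the excess squared variation of *ccnr2* at 9 hpf from 7.68 to 1.07, a drop that follows from how these cells were chosen. For *igf1* it went from 1.13 to 0.57. The middle cells by depth gave 2.21 for *ccnr2* and 0.52 for *igf1*, and thinning to 1000 UMIs gave 3.70 and 0.56. Counting intervals do not cover differences between embryo batches, and at 16 hpf 486 cells with 6 *igf1* UMIs limit what can be seen.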
